A study of Mus musculus with 4 samples.

Results

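Cdkn1a, Btg2, Gadd45b and Gadd45g are genes of growth arrest and stress that are commonly listed with the p53 response. They were taken by name from the 230 genes listed for this series, and all 4 were found with a value in every library. RNA was taken from the brains of tau+/+ and tau-/- mice 1 h after they received vehicle or pentylenetetrazole (PTZ, 50 mg/kg, intraperitoneally), a convulsant that acts by blocking inhibitory GABA receptors. The mice were 6 weeks old and on a C57Bl/6 background, and the tau-/- allele was made by knocking GFP cDNA into the first exon of Mapt, the gene of the microtubule-associated protein tau. The 4 libraries were tau+/+ vehicle, tau+/+ PTZ, tau-/- vehicle and tau-/- PTZ, with 1 library per condition. The labels call the vehicle libraries sham. They give brain as the source and mention cultured primary neurons as well, and the values below are read as brain. The severity of seizures was matched among the PTZ mice, and the number of mice per library is not stated in the sources used here.

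Values are FPKM, the sequenced fragments scaled to transcript length and library size, and are set side by side between genes and between libraries. Whether this scaling is enough where the RNA make-up of libraries differs was not tested. The depth of a library cannot be read from FPKM. The genes had been selected by the study on these libraries for responding in tau+/+ but less or not at all in tau-/-, so the tau+/+ response and its loss are given below as descriptions. Each condition has 1 library, so no value carries a replicate error and no test was made. A gene is said to have risen or fallen only where it passed 1.5-fold, the fold threshold of the study's methods. The study required a p-value cut as well, which is not applied here. Mapt is not analysed here, so the genotypes rest on the labels.

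The p53 protein is a transcription factor that is stabilised by DNA damage and other stress, and it switches on genes that halt the cell cycle, repair DNA or start cell death. Cdkn1a encodes p21, an inhibitor of cyclin-dependent kinases and the best known of the p53 targets that arrest the cell cycle. Btg2 encodes an antiproliferative protein of the BTG/Tob family that promotes mRNA deadenylation, and it is both a p53 target and an immediate-early gene that is transcribed within minutes of a stimulus. Gadd45b and Gadd45g encode small acidic proteins that activate the stress kinase MEKK4 and take part in active DNA demethylation. Gadd45b is known in brain as a gene induced by neuronal activity. In neurons, which no longer divide, these genes are better known as parts of the stress and activity response than as brakes on division.

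The promoters are shown so that the upstream regions of the 4 genes can be compared letter by letter. All 4 rose in tau+/+ PTZ, as did 76.1% of the 230 listed genes, so the rise does not set them apart. Sequences are from RefSeq on GRCm38.p6 and run 5′ to 3′ on the strand of the gene, from 250 to 21 bases upstream of the annotated start. Capitals mark the p53 decamer (the unit of a p53 binding site), the cyclic AMP response element (CRE, TGACGTCA) and the TATA box (TATAAA).
Cdkn1a start site 1, chr17:29090729-29090958, plus strand: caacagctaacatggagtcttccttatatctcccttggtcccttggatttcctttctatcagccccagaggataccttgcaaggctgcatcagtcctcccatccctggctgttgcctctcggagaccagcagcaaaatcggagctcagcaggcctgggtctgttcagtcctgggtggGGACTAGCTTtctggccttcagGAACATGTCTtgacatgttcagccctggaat
Cdkn1a start site 2, chr17:29093519-29093748, plus strand: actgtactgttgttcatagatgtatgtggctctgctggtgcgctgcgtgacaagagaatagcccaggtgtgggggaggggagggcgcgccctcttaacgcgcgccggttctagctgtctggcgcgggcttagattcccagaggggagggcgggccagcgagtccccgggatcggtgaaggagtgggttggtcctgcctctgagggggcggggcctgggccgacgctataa
Btg2, chr1:134079176-134079405, minus strand: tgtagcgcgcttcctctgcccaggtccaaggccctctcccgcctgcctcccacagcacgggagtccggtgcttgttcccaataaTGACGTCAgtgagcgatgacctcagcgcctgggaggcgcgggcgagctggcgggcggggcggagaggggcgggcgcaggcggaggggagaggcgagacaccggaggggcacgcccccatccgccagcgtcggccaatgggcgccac
Gadd45b, chr10:80929841-80930070, plus strand: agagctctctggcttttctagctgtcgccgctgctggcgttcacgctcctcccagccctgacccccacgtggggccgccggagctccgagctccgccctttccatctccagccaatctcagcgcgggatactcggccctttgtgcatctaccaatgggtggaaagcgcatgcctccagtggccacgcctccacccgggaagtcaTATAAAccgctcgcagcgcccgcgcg
Gadd45g, chr13:51846425-51846654, plus strand: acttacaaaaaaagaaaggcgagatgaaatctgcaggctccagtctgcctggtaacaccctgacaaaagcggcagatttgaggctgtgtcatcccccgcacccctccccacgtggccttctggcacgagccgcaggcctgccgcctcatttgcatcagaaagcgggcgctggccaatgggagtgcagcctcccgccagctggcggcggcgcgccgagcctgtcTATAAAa

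The genes lie on different chromosomes of GRCm38. For each gene a single transcript marked as principal is described, and any others were not examined. In GENCODE M21, Cdkn1a (ENSMUSG00000023067.14) is at chr17:29090976-29100727 on the plus strand, and the transcript described has 2 exons and 1172 bases. Btg2 (ENSMUSG00000020423.6) is at chr1:134075170-134079120 on the minus strand, with 2 exons and 2743 bases. Gadd45b (ENSMUSG00000015312.9) is at chr10:80930073-80932204 and Gadd45g (ENSMUSG00000021453.2) at chr13:51846678-51848468, both on the plus strand with 4 exons, and their transcripts have 1284 and 1071 bases. Cdkn1a is overlapped on the opposite strand by AC167363.2 at chr17:29093416-29094461. Strand-specific counting is not stated in the sources used here, so reads of Cdkn1a and of AC167363.2 could not be told apart.

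The windows held different motifs. In the window of Cdkn1a start site 1, GGACTAGCTT stood 73 to 64 bases and GAACATGTCT 51 to 42 bases upstream, and each matches the p53 decamer, a motif present in 6.59% of 32851 mouse windows of the same length. In the window of Btg2, TGACGTCA stood 166 to 159 bases upstream. This palindrome holds the shorter CRE core (TGACG) on each strand, and the whole CRE was present in 1.28% of all windows and the core in 15.9%. Gadd45b and Gadd45g each had a TATAAA, 46 to 41 and 27 to 22 bases upstream, a motif in 11.8% of all windows. The window of Cdkn1a start site 2 ends in TATAA at base 21 upstream, so a TATAAA running past its end would not be matched. Distances are counted from the RefSeq start, which differs from the GENCODE start given above. For Gadd45b the RefSeq start is base 80930091 and the GENCODE start 80930073, so its TATAAA lies closer to the GENCODE start. The GC box (GGGCGG), in 29.8% of all windows, was found 3 times in Btg2, 2 times in Cdkn1a start site 2 and 1 time in Gadd45b. An AP-1 site (TGANTCA, in 6.34% of windows) or a CArG box (in 1.41%) was not matched in any of the 5 windows. Every motif was searched on both strands. GC content ran from 53.5% in Cdkn1a start site 1 to 72.2% in Btg2, with 60.4% in Gadd45g, 64.3% in Cdkn1a start site 2 and 65.2% in Gadd45b. A match is a string of letters and was not tested as a binding site.

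In tau+/+ mice, Cdkn1a was at 6.22 FPKM with vehicle and 11.0 FPKM with PTZ, and in tau-/- mice at 7.29 FPKM with vehicle and 6.39 FPKM with PTZ. The tau+/+ PTZ library stood above the other libraries, which lay within 1.17-fold of each other. Its FPKM rose 1.77-fold with PTZ in tau+/+, a log2 ratio of 0.82. In tau-/- the value with PTZ was 0.877 of that with vehicle, a log2 ratio of -0.19. In bulk RNA such as this, fewer cells of a type and less RNA per cell cannot be told apart.

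Btg2 in tau+/+ mice was at 7.10 FPKM with vehicle and 105 FPKM with PTZ, and in tau-/- mice at 5.56 FPKM with vehicle and 14.3 FPKM with PTZ. It was highest with PTZ in each genotype, and by far the highest in tau+/+ PTZ. Its FPKM rose 14.8-fold in tau+/+ (log2 ratio 3.89) and 2.57-fold in tau-/- (log2 ratio 1.36), and it was the only one of the 4 genes to pass 1.5-fold in tau-/-. On the log2 scale the tau-/- response was 35.1% of the tau+/+ response. Among all 230 listed genes Btg2 ranked 7 from the top for its response in tau+/+ and again 7 in tau-/-.

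For Gadd45b, the tau+/+ values were 5.93 FPKM with vehicle and 14.2 FPKM with PTZ, and the tau-/- values were 9.19 and 6.20 FPKM. The tau-/- vehicle library held the second highest value, and tau-/- PTZ lay close to tau+/+ vehicle. With PTZ its FPKM rose 2.40-fold in tau+/+ (log2 ratio 1.26). In tau-/- the log2 ratio was -0.57, a value with PTZ that was 0.675 of that with vehicle and just short of a 1.5-fold fall.

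The level of Gadd45g in tau+/+ was 13.5 FPKM with vehicle and 58.0 FPKM with PTZ, and in tau-/- it was 16.3 and 12.3 FPKM. Only the tau+/+ PTZ library stood apart, at 3.57 times the next highest, and the other libraries lay within 1.32-fold of each other. With PTZ its FPKM rose 4.30-fold in tau+/+ (log2 ratio 2.11), and in tau-/- the log2 ratio was -0.40.

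**Figure D1:**
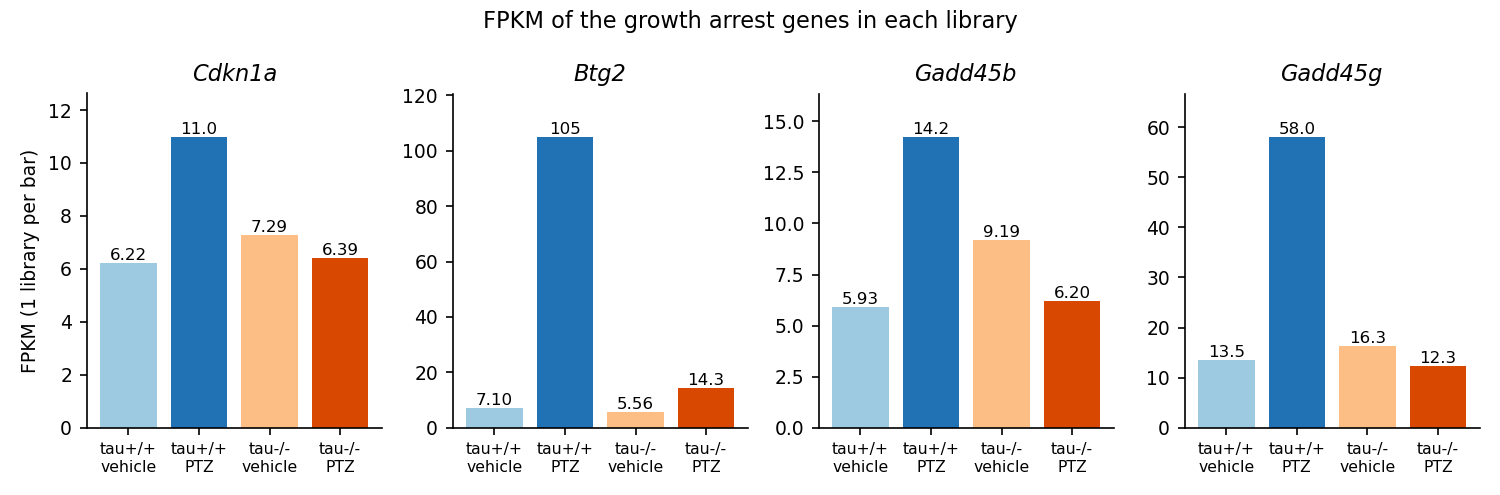
FPKM (vertical axis, linear from 0, a separate scale for each gene) of Cdkn1a, Btg2, Gadd45b and Gadd45g in the 4 libraries, 1 bar per library and no error bar because there is 1 library per condition. The tau+/+ PTZ bar is the highest for every gene, and the tau-/- PTZ bar stands clearly above its vehicle bar for Btg2, at 14.3 against 5.56 FPKM.

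The order of the 4 genes by level changed with condition. In tau+/+ vehicle it was Gadd45g, Btg2, Cdkn1a and Gadd45b, and the highest was 2.27 times the lowest. With PTZ in tau+/+ it was Btg2, Gadd45g, Gadd45b and Cdkn1a, and the highest was 9.56 times the lowest. In tau-/- vehicle Gadd45g led and Btg2 was the lowest, a 2.93-fold range, and in tau-/- PTZ Btg2 led and Gadd45b was the lowest, a 2.31-fold range. Without replicates, neighbours in these orders that lie close, such as Cdkn1a at 6.22 and Gadd45b at 5.93 FPKM in tau+/+ vehicle, cannot be ranked against any spread. Summed over the 4 genes, FPKM was 32.7 in tau+/+ vehicle, 188 in tau+/+ PTZ, 38.3 in tau-/- vehicle and 39.2 in tau-/- PTZ. The near equality of the last pair hid an exchange, since the share of Btg2 in the sum was 14.5% in tau-/- vehicle and 36.5% in tau-/- PTZ. In tau+/+ its share went from 21.7% to 55.8%. The Gadd45 pair did not keep 1 ratio either: Gadd45g over Gadd45b was 2.27 in tau+/+ vehicle, 4.08 in tau+/+ PTZ, 1.77 in tau-/- vehicle and 1.99 in tau-/- PTZ.

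In tau+/+ all 4 genes rose past 1.5-fold, as did 76.1% of the 230 listed genes, and the listed genes had been selected on that contrast. The median log2 ratio was 1.68 over the 4 genes and 0.80 over all listed genes. All 4 had their highest value in tau+/+ PTZ, which was so for 75.7% of listed genes. Ranked by the tau+/+ response among 230, Btg2 was 7, Gadd45g 26, Gadd45b 69 and Cdkn1a 110.

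In tau-/- only Btg2 rose, and the FPKM of Cdkn1a, Gadd45b and Gadd45g was lower with PTZ than with vehicle but within 1.5-fold. Over all listed genes 8.70% rose, 16.5% fell and 74.8% stayed within 1.5-fold in tau-/-. Within this list, the 3 genes were in the commonest class and Btg2 in the rarest. The list was also selected for a missing or milder tau-/- response, so these shares follow in part from the selection. A rise in tau+/+ with a tau-/- log2 ratio below 0, as these 3 genes had, was found in 97 of the listed genes (42.2%). The median log2 ratio was -0.30 over the 4 genes and -0.10 over all listed genes. Ranked by the tau-/- response among 230, Cdkn1a was 135, Gadd45g 173 and Gadd45b 192. The log2 response was lower in tau-/- than in tau+/+ by a median of 2.17 over the 4 genes, with differences (tau-/- minus tau+/+) of -1.01 for Cdkn1a, -1.83 for Gadd45b, -2.51 for Gadd45g and -2.52 for Btg2. Gadd45g and Btg2 thus lost nearly the same amount on the log2 scale, from responses of 2.11 and 3.89. The median of this difference over all listed genes was -0.98. It was not tested.

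**Figure D2:**
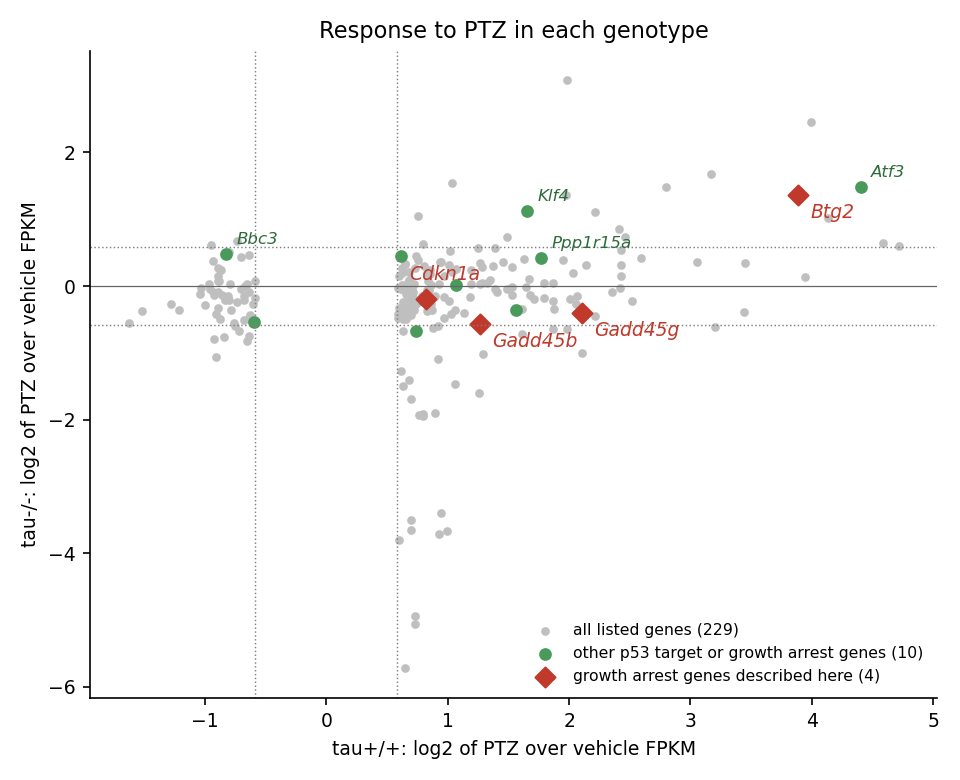
Each point is a gene, with the log2 ratio of PTZ over vehicle in tau+/+ on the horizontal axis and in tau-/- on the vertical axis. Grey points are listed genes, green points are 10 other p53 target and growth arrest genes, red diamonds are Cdkn1a, Btg2, Gadd45b and Gadd45g, and dotted lines mark 1.5-fold. Defb11, listed at 0 FPKM in tau-/- PTZ, has no ratio and is not drawn. Btg2 lies at 3.89 and 1.36, while the other diamonds lie between -0.57 and -0.19 in tau-/-.

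With vehicle alone, the genes were compared between genotypes. Cdkn1a, Gadd45b and Gadd45g had a higher FPKM in the tau-/- than in the tau+/+ library, with log2 differences of 0.23, 0.63 and 0.27, while Btg2 was lower at -0.35. Only Gadd45b passed 1.5-fold, at 1.55-fold higher in tau-/-. Of all listed genes 13.9% were over 1.5-fold higher in tau-/- vehicle and 58.7% were higher by any amount, against 3 of these 4 genes. Gadd45b no longer passed 1.5-fold once the differences were centred on the listed genes outside choroid plexus and meninges, with a log2 difference of 0.52. Ranked by this difference among 230, Gadd45b was 30, Gadd45g 83, Cdkn1a 91 and Btg2 189.

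Under PTZ all 4 genes were lower in tau-/- than in tau+/+, by 1.72-fold for Cdkn1a, 2.30-fold for Gadd45b, 4.71-fold for Gadd45g and 7.34-fold for Btg2. Of all listed genes 60.4% were over 1.5-fold lower in tau-/- PTZ. This comparison uses the tau+/+ PTZ library on which the genes had been selected, and nothing is read from the count.

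The tau-/- PTZ library was also set against tau+/+ vehicle, which differs from it in both genotype and treatment. Cdkn1a, Gadd45b and Gadd45g lay close to the tau+/+ vehicle level, at ratios of 1.03, 1.05 and 0.914. Btg2 was higher by 1.01 on the log2 scale, and 14.8% of listed genes were over 1.5-fold higher in this comparison. By arithmetic, the tau-/- response is this ratio less the vehicle difference, on the log2 scale, so these quantities are not independent of each other.

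Markers of other cell types differed between libraries as well. Of 14 markers of the choroid plexus, the epithelium that makes cerebrospinal fluid, 9 were listed, and all 9 fell in tau-/- with a median log2 ratio of -3.71. In tau+/+ all 9 rose, with a median of 0.73. Over all listed genes 16.5% fell in tau-/-, with a median log2 ratio of -0.10. In tau+/+ 76.1% rose, with a median of 0.80. The genes had been selected on the responses of both genotypes. The summed FPKM of the 9 markers was 1551 in tau+/+ vehicle, 2573 in tau+/+ PTZ, 1141 in tau-/- vehicle and 36.6 in tau-/- PTZ. None of the 9 was at 0. Ttr alone made up most of each sum, at 1504, 2492, 1107 and 33.1 FPKM in the same order. Of 10 markers of the meninges 4 were listed, none at 0, with sums of 13.3, 21.8, 14.0 and 7.54 FPKM in the same order. In tau-/- 2 of these 4 fell and 2 stayed within 1.5-fold, with a median log2 ratio of -0.52, and in tau+/+ all 4 rose, with a median of 0.75. The part of these cells in the values of Cdkn1a, Btg2, Gadd45b and Gadd45g was not tested. Without the genes of both marker lists, the median tau-/- log2 ratio of the 217 other listed genes was -0.062, against -0.10 with them. Markers of neurons, astrocytes, oligodendrocytes, microglia, endothelium and red blood cells were not among the genes analysed here, so the brain source could not be checked on them.

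Of 40 p53 targets written down, 9 were listed, and without Cdkn1a and Btg2 there were 7. In tau+/+ 6 of the 7 rose and 1 fell, and in tau-/- 2 rose, none fell and 5 stayed within 1.5-fold, while 76.1% of all listed genes rose in tau+/+ and 8.70% in tau-/-. The median log2 ratio of the 7 was 1.07 in tau+/+ and 0.45 in tau-/-. The count of 2 was 1 with a pseudocount of 1 FPKM, with a median of 0.28. A mean of at least 5 FPKM left only Ddit4 and Plk2 and removed both genes that rose. The pair that rose in tau-/- was Atf3, a stress-induced transcription factor, and Klf4, a zinc finger transcription factor that can arrest the cell cycle. Both stood on the list of immediate-early genes as well.

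In tau+/+ mice, Atf3 was at 0.430 FPKM with vehicle and 9.10 FPKM with PTZ, and in tau-/- mice at 0.386 FPKM with vehicle and 1.08 FPKM with PTZ. For Klf4 these values were 2.31, 7.30, 2.21 and 4.79 FPKM. Wherever 4 values of a gene follow each other, the order is tau+/+ vehicle, tau+/+ PTZ, tau-/- vehicle and tau-/- PTZ. Their tau-/- log2 ratios were 1.48 and 1.12, on either side of the 1.36 of Btg2.

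Thbs1, which encodes thrombospondin 1 and is counted among p53 targets, had the pattern of the Gadd45 genes at a lower level, with 0.581, 1.71, 0.904 and 0.704 FPKM. Its log2 ratio was 1.56 in tau+/+ and -0.36 in tau-/-. Ddit4, a stress-induced inhibitor of mTORC1 signalling, was measured at 16.6, 29.1, 25.8 and 22.4 FPKM. Like Gadd45b and Thbs1, its vehicle level differed by over 1.5-fold between genotypes, at 1.55-fold higher in tau-/-. Plk2, a polo-like kinase of activity-dependent synaptic scaling, was the most abundant of these genes, at 63.4, 133, 75.4 and 76.3 FPKM, with a tau-/- log2 ratio of 0.016.

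Fdxr and Bbc3 did not follow this pattern. Fdxr, a mitochondrial reductase, was measured at 2.91, 4.46, 3.10 and 4.22 FPKM, with log2 ratios of 0.62 in tau+/+ and 0.45 in tau-/-. Bbc3, which encodes the proapoptotic protein PUMA, was the gene that fell in tau+/+, at 2.09, 1.18, 1.16 and 1.61 FPKM. Its log2 ratio was -0.82 in tau+/+ and 0.48 in tau-/-. Its direction in tau+/+ was thus opposite to that of Cdkn1a, Btg2, Gadd45b and Gadd45g. Its tau-/- vehicle value was also the lower one, with a log2 difference of -0.85.

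The growth arrest list of 25 genes had 9 listed, of which 5 were other than Cdkn1a, Btg2, Gadd45b and Gadd45g. In tau+/+ 4 of the 5 rose and 1 fell, and in tau-/- 1 rose, 1 fell and 3 stayed within 1.5-fold, with medians of 0.81 and -0.21. Over all listed genes 76.1% rose in tau+/+, and 8.70% rose, 16.5% fell and 74.8% stayed within 1.5-fold in tau-/-. The tau-/- median of the 5 was 0.43 with tau+/+ vehicle as the baseline. Ppp1r15a, also called Gadd34, a regulatory subunit of the phosphatase that ends the translational block of stress, was measured at 6.65, 22.7, 7.14 and 9.55 FPKM, with a tau-/- log2 ratio of 0.42. Plk5, a polo-like kinase that lacks kinase activity and can arrest the cell cycle, was measured at 3.18, 5.31, 6.62 and 4.14 FPKM. It fell in tau-/-, with a log2 ratio of -0.68, from a tau-/- vehicle value that was 2.08-fold that of tau+/+ vehicle. Cdkn2aip, which encodes a binding partner of ARF and p53, was at 2.82 FPKM with vehicle and 1.86 FPKM with PTZ in tau+/+, and its log2 ratio was -0.60 in tau+/+ and -0.54 in tau-/-.

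**Figure D3:**
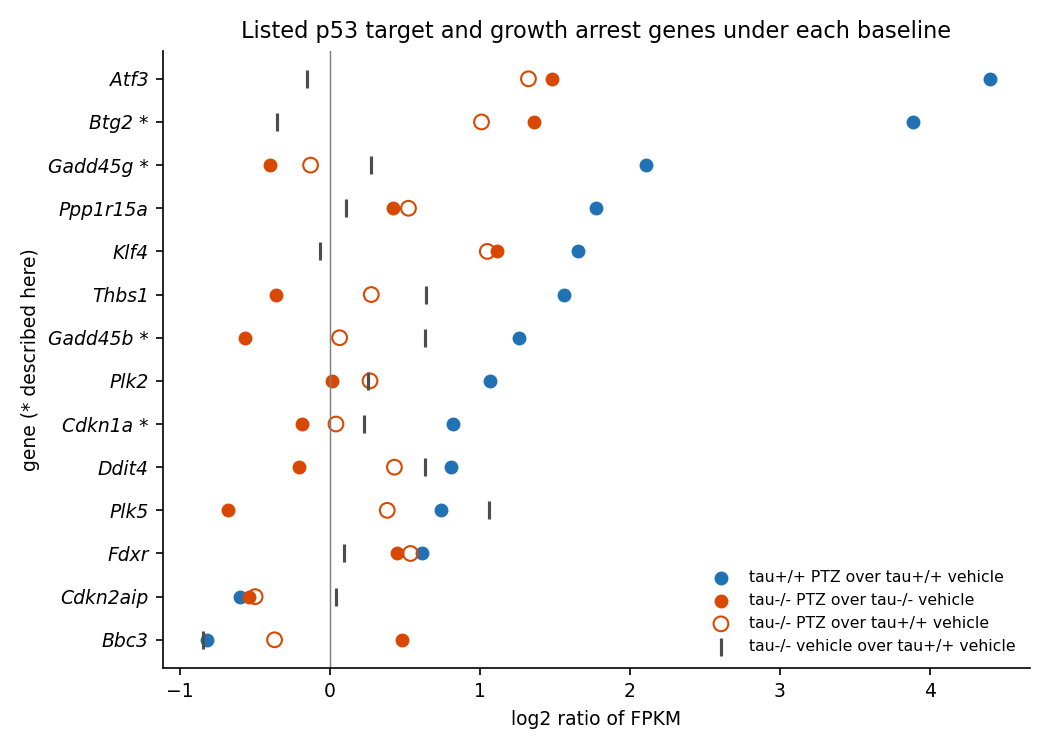
Log2 ratios of FPKM for the 14 listed p53 target and growth arrest genes. Each row is a gene, and the points give PTZ over vehicle in tau+/+, PTZ over vehicle in tau-/-, tau-/- PTZ over tau+/+ vehicle, and tau-/- vehicle over tau+/+ vehicle. Bbc3 and Cdkn2aip have tau+/+ points below 0, at -0.82 and -0.60, and Atf3, Btg2 and Klf4 have the highest tau-/- points, at 1.48, 1.36 and 1.12.

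The profile of each gene over the 4 libraries was compared with those of 228 other genes, as the root mean square difference of log2 FPKM after each gene was centred on its own mean. Cdkn1a and Gadd45b were nearest each other among the 4 genes, at 0.206, and Gadd45b and Gadd45g were at 0.463. Btg2 stood apart, at 0.941 from Gadd45g, 1.33 from Gadd45b and 1.39 from Cdkn1a. The genes nearest to Btg2 were Atf3 at 0.188, Fos at 0.304 and Npas4 at 0.368, all of them immediate-early transcription factors. Fos was measured at 6.80, 119, 9.43 and 19.1 FPKM and Npas4, which is induced by calcium entry in neurons, at 3.21, 76.9, 3.57 and 5.58 FPKM.

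The genes nearest to Gadd45b were Ccno at 0.103, Dusp4 at 0.113 and Spty2d1 at 0.127. Dusp4, a phosphatase that inactivates MAP kinases, was measured at 6.18, 12.1, 8.74 and 6.28 FPKM, close to Gadd45b in level in every library. The genes nearest to Gadd45g were C2cd4b at 0.123, Rgs2 at 0.213 and Adamts1 at 0.217. Rgs2, which shortens signalling by G proteins, was measured at 11.0, 34.4, 10.2 and 10.1 FPKM. The genes nearest to Cdkn1a were Ifrd1 at 0.0438, Midn at 0.0532 and 9030025P20Rik at 0.0629. Ifrd1 was measured at 15.0, 27.9, 17.0 and 15.4 FPKM. Over 4 libraries, in a list selected for a common pattern, such likeness is a description only.

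**Figure D4:**
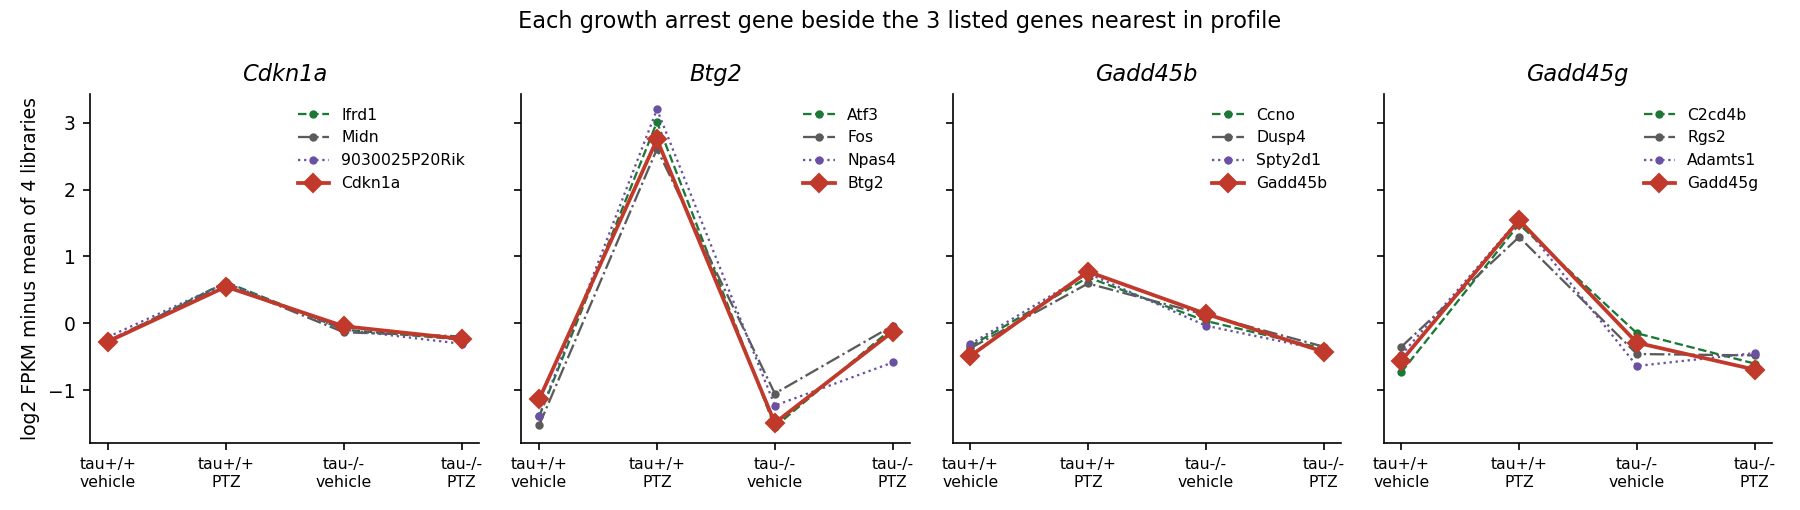
Log2 FPKM centred on each gene's mean (vertical axis) in the 4 libraries (horizontal axis), with 1 panel each for Cdkn1a, Btg2, Gadd45b and Gadd45g and the 3 genes nearest to it. All panels peak in tau+/+ PTZ, and Btg2 with Atf3, Fos and Npas4 shows a second, lower peak in tau-/- PTZ.

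Against the 30 immediate-early genes on the list, the 4 genes divided. That list was written with the listed genes known and holds no other genes, so its tau+/+ counts follow from the selection. Its tau-/- counts are shaped by the selection too, which asked for a missing or milder tau-/- response. All 30 rose in tau+/+, against 76.1% of all listed genes, with a median log2 ratio of 2.31, and in tau-/- 10 rose, 2 fell and 18 stayed within 1.5-fold with a median of 0.33. Over all listed genes 8.70% rose and 16.5% fell in tau-/-. The count of 10 was 6 at a threshold of 2-fold, 7 with a pseudocount of 1 FPKM, 7 at a mean of at least 5 FPKM, and 17 with tau+/+ vehicle as the baseline, where the median was 0.80. Btg2, at 3.89 and 1.36, was above both medians. Gadd45g was near the median in tau+/+, at 2.11, but below it in tau-/-, at -0.40. Cdkn1a and Gadd45b were below both medians. Of the 5 listed AP-1 genes (Fos and Jun family members), 5 rose in tau+/+ and 2 in tau-/-, with medians of 3.05 and 0.40, and of the 4 listed MAP kinase phosphatases 4 rose in tau+/+ and 1, Dusp1, in tau-/-. Dusp1 was measured at 8.70, 40.2, 8.66 and 18.7 FPKM, so it rose in both genotypes as Btg2 did.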

How the data were processed

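The authors prepared libraries from 1 µg of total RNA and sequenced them as read pairs. Per the labels' processing notes the tools were CASAVA 1.7, TopHat2 2.03, Bowtie2 2.0.0.6 and Cuffdiff 2.01, with mm10 as the build. The annotation is not given in the sources used here. The deposited FPKM values are those of Cuffdiff, normalised by the authors, for 230 selected genes. The table's 4 columns of the authors' own comparisons (fold changes and p-values) were not used.

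The response of a genotype was the log2 of the FPKM ratio of its PTZ library to its vehicle library, with no pseudocount added, and the threshold was 1.5-fold. Defb11, the 1 gene listed at 0, was counted as lower. The named genes were the 4 growth arrest genes, members of the p53 target, growth arrest, cell cycle and immediate-early lists, and the 3 nearest profiles of each gene. Other genes of the AP-1, MAP kinase phosphatase and marker lists were named where a sentence turned on them, after their values were seen. The genes and lists were chosen with earlier results of these data known. Alternatives were pseudocounts of 0.1 and 1 FPKM, minimum means of 1 and 5 FPKM, a threshold of 2-fold, tau+/+ vehicle as baseline, and centring. Leaving out a replicate could not be done. Promoters of all 4 genes were matched by symbol in a RefSeq table of windows that begin 250 bases upstream, and their last bases, from 20 upstream, were left off. Functions were tested on simulated data. Python 3.11.15 with numpy 2.4.6, pandas 2.3.3 and matplotlib 3.10.9 was used.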

Additional observations from a re-analysis of the deposited data

Results flagged for a closer look

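For Cdkn1a, Gadd45b and Gadd45g the log2 ratio of PTZ over vehicle was above 0 in tau+/+, where each gene rose, and below 0 in tau-/-, where none passed 1.5-fold. Of the 175 listed genes that rose in tau+/+, 97 had a tau-/- log2 ratio below 0, so this was common in the list. The log2 ratios in tau-/- were -0.19 for Cdkn1a, -0.57 for Gadd45b and -0.40 for Gadd45g, against 0.82, 1.26 and 2.11 in tau+/+. With tau+/+ vehicle as the baseline, the values of tau-/- PTZ were 0.040 for Cdkn1a and 0.064 for Gadd45b, above 0, and -0.13 for Gadd45g. With 1 library per condition the difference between the genotypes was not tested.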

How the results depend on the processing

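Of 44 recomputed responses and differences of Cdkn1a, Btg2, Gadd45b and Gadd45g, 32 stayed within 0.1 on the log2 scale and 12 moved by more. Part of this tally was fixed in advance. With all values at 5.56 FPKM or more, a pseudocount of 0.1 FPKM cannot move a log2 ratio by 0.1. Centring subtracts the same median from every gene, -0.062 for the tau-/- response and 0.115 for the vehicle difference. It therefore left all 4 genes within 0.1 in the former and moved all 4 beyond it in the latter. With a pseudocount of 1 FPKM the tau+/+ log2 ratio was 1.14 for Gadd45b and 3.71 for Btg2, the tau-/- log2 ratio of Btg2 was 1.22, and the PTZ difference of Gadd45b was -1.08. With tau+/+ vehicle as the baseline, the tau-/- PTZ log2 ratio was 0.064 for Gadd45b, -0.13 for Gadd45g, 1.01 for Btg2 and 0.040 for Cdkn1a, and their median was 0.052 in place of -0.30, so that the sign turned for Gadd45b, Cdkn1a and the median, all within 1.5-fold. The tau-/- median of the other growth arrest genes turned as well, from -0.21 to 0.43 with that baseline. A mean of at least 5 FPKM left 2 genes in each list, Ddit4 and Ppp1r15a with a median of 0.11 and Ddit4 and Plk2 with a median of -0.095, so these values describe fewer genes. With centring on listed genes outside choroid plexus and meninges, the vehicle difference was 0.52 for Gadd45b, which no longer passed 1.5-fold, 0.16 for Gadd45g, -0.47 for Btg2 and 0.11 for Cdkn1a. The 16 ranks by level were the same among genes with a mean of at least 1 FPKM, which was fixed in advance. A gene below that mean cannot reach 5.56 FPKM in any library, the lowest value of the 4 genes. The study's methods give a minimum of aligned read pairs for all samples but not the depth of each library, and the counting error of values near 1 FPKM, such as those of Atf3 and Thbs1, was not estimated. No paired analysis was possible because each condition has 1 library.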

Other observations

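Of 21 genes written down for the cell cycle, 8 were listed, among them Plk2, which also stands on the p53 target list. In tau+/+ 6 of the 8 rose and 2 fell, with a median log2 ratio of 1.00, and 76.1% of all listed genes rose in this contrast, on which the list was selected. In tau-/- all 8 stayed within 1.5-fold, with a median of -0.067, as did 74.8% of all listed genes. A missing or milder tau-/- response was part of the selection as well. Cenpa, the histone variant of centromeres, was measured at 1.00 FPKM in tau+/+ vehicle, 4.19 in tau+/+ PTZ, 0.783 in tau-/- vehicle and 0.705 in tau-/- PTZ. Ccnl1, a cyclin of RNA splicing, was measured at 7.31, 14.3, 9.45 and 8.47 FPKM in the same order, and Siah2, a ubiquitin ligase, at 4.11, 9.37, 4.75 and 4.88 FPKM. The genes that fell in tau+/+ were Ccnj, a cyclin, at 1.73 and 0.920 FPKM, and Cit, the citron kinase of cytokinesis, at 6.19 and 4.11 FPKM. No test was made.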
